A study of Mus musculus with 12 samples.

Results

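Transcripts of MHC class I antigen presentation were followed in whole colon by RNA sequencing. The set comprised H2-K1, H2-D1, B2m, Tap1, Tap2, Tapbp, Psmb8, Psmb9, Psmb10 and Nlrc5, taken by gene name from the gene table, which gave 10 of its 54532 genes. Class I molecules carry short peptides from inside the cell to its surface, where CD8 T cells read them through the T cell receptor and natural killer cells sense the molecule itself. Proteasomes cut the peptides, the TAP transporter carries them into the endoplasmic reticulum, tapasin helps to load them, and beta-2-microglobulin completes the folded molecule. Interferon signalling, through factors that include IRF1 and NLRC5, is known to raise these genes, and intestinal epithelium as well as immune cells express them.

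The study deleted Tmem173, which encodes the cytosolic DNA sensor adaptor STING, in myeloid cells and asked how this altered acute colitis. The 12 libraries fell into 4 groups of 3 randomly chosen samples, and that each came from its own mouse was not stated. Tmem173fl/fl mice (labelled WT) carried floxed Tmem173 alleles without Cre, and Tmem173iΔmye mice (labelled CRE) carried in addition a tamoxifen-inducible Cre driven by Lyz2, a promoter active in macrophages, monocytes and neutrophils. All mice, controls included, were on the C57BL/6N background, had received 5 injections of tamoxifen and, by the study's methods, were 6 to 8 weeks old when DSS was given. The colitic mice (labelled DSS) drank dextran sodium sulfate (DSS), a polymer that injures the colonic epithelium, for 7 days and then water for 1 day, and the untreated mice (labelled Control) drank water. The colitic Tmem173iΔmye replicates were numbered 1, 2 and 5.

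Read totals ran from 13823237 to 18718915 per library. Levels are given as CPM, counts scaled to a common library total after TMM scaling, a scaling that allows for a few genes taking a large share of the reads. Tmem173 did not separate the genotypes in this whole tissue: it stood at 24.5, 14.4 and 22.9 CPM in untreated Tmem173fl/fl, at 17.2, 14.6 and 21.3 CPM in untreated Tmem173iΔmye, at 42.4, 44.0 and 37.7 CPM in colitic Tmem173fl/fl and at 47.8, 23.8 and 31.1 CPM in colitic Tmem173iΔmye, so that the genotype labels were not checked by it. Lyz2 was at 150 to 277 CPM in untreated Tmem173fl/fl and at 76.4 to 115 CPM in untreated Tmem173iΔmye, without overlap. Between these untreated groups 7.35% of all genes tested did not overlap, in either direction. With DSS the Lyz2 ranges overlapped, at 336 to 505 CPM in Tmem173fl/fl and 231 to 357 CPM in Tmem173iΔmye. Replicate 3 of each untreated group and replicate 5 of colitic Tmem173iΔmye had no reads of the Y-linked gene Ddx3y, and the other libraries had 842 reads or more. The X-linked gene Xist reached 1839 CPM in untreated Tmem173fl/fl, 1225 CPM in untreated Tmem173iΔmye and 1451 CPM in colitic Tmem173iΔmye. In colitic Tmem173fl/fl it was at most 0.545 CPM, and this was the only group without a library lacking Ddx3y reads. The labels gave no sex. Each count of calls among the 10 genes was therefore also taken with the 3 libraries lacking Ddx3y reads left out. The 12 epithelial markers summed to between 7428 and 10230 FPKM (fragments scaled to gene length and library total) in untreated Tmem173fl/fl colon, so that markers of the labelled tissue were present. Markers of exocrine pancreas, a neighbouring organ, were uneven: 5 of them summed to 3794 FPKM in colitic Tmem173iΔmye replicate 1, 2562 and 1423 FPKM in colitic Tmem173fl/fl replicates 1 and 2, 1289 FPKM in untreated Tmem173fl/fl replicate 3, 683 FPKM in untreated Tmem173iΔmye replicate 2 and 41.3 to 190 FPKM in the other 7 libraries. Their part in the class I results was not tested beyond leaving out each library in turn.

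A promoter stretch is shown for the genes of the class I molecule itself, because H2-K1, H2-D1 and B2m encode its parts. Each sequence, from RefSeq (GRCm38.p6), holds the 250 bases before the annotated start site, read 5′ to 3′ on the gene's own strand. They lie at chr17:34000334-34000583 on the minus strand for H2-K1, chr17:35262844-35263093 on the plus strand for H2-D1 and chr2:122147437-122147686 on the plus strand for B2m. Capitals mark matches to an NF-kB consensus and to a short core of the interferon-stimulated response element (ISRE).
H2-K1: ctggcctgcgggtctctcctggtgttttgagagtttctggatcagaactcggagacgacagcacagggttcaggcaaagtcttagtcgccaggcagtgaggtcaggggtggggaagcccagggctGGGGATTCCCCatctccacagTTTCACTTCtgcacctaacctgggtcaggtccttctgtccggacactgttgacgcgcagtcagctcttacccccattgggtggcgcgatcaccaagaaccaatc
H2-D1: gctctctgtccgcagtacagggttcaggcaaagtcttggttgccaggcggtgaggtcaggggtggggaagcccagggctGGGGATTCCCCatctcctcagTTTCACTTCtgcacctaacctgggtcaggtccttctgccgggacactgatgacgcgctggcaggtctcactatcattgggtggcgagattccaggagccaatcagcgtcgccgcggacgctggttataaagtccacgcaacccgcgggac
B2m: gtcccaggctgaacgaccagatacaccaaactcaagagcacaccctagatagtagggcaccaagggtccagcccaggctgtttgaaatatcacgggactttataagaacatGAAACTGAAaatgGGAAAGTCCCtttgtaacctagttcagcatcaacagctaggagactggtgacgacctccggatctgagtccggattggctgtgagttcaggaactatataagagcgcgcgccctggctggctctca

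Both strands were searched, and positions count from the start site as 0. The ISRE core GAANNGAAA matched in H2-K1 from -104 to -96 and in H2-D1 from -150 to -142, on the minus strand in each, and 7.52% of 32851 RefSeq promoter windows of 300 bases held it. B2m held the related core GAAANNGAA from -139 to -131, a spelling that was added after its window had been read and that 8.56% of the windows held. The NF-kB consensus matched in H2-K1 between -125 and -115, in H2-D1 between -171 and -161 and in B2m between -126 and -117, and was present in 8.46% of the windows. H2-K1 and H2-D1 were alike over 225 of 347 aligned columns of their 300-base windows (64.8%). Windows were given for 8 of the 10 genes, all but Tap2 and Nlrc5. Among the others, Psmb8 held the core TTCNNNGAA of the gamma-activated sequence (GAS) from -97 to -89, which 8.3% of the windows held, and CCAAT was found in 6 of the 8 against 37.4% of the windows. The windows of Tap1 and Psmb9, which lie head to head on chromosome 17, shared 275 bases. Their CCAAT matches are the same site in that shared stretch, counted for each gene. These matches describe letters in a window and say nothing of binding.

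In untreated Tmem173fl/fl colon the class I genes covered a wide range of levels per length. B2m stood highest at 2837 ± 370 FPKM (SD, n = 3), followed by H2-K1 at 1134 ± 266 and H2-D1 at 709 ± 212 FPKM. Tapbp reached 138 ± 27.9 FPKM, Psmb10 88.9 ± 2.75 FPKM and Tap1 64.3 ± 8.46 FPKM. Psmb9 at 41.0 ± 6.96 FPKM and Psmb8 at 40.3 ± 5.07 FPKM were followed by Tap2 at 26.5 ± 5.21 FPKM and Nlrc5 at 18.9 ± 5.63 FPKM. Neighbours in this order overlapped between libraries for H2-K1 and H2-D1, for Psmb9 and Psmb8, and for Tap2 and Nlrc5, and did not overlap elsewhere. B2m, H2-K1, H2-D1 and Tapbp led in that order in all 4 groups. In colitic Tmem173fl/fl colon each neighbouring pair from Psmb10 down to Nlrc5 overlapped.

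**Figure D1:**
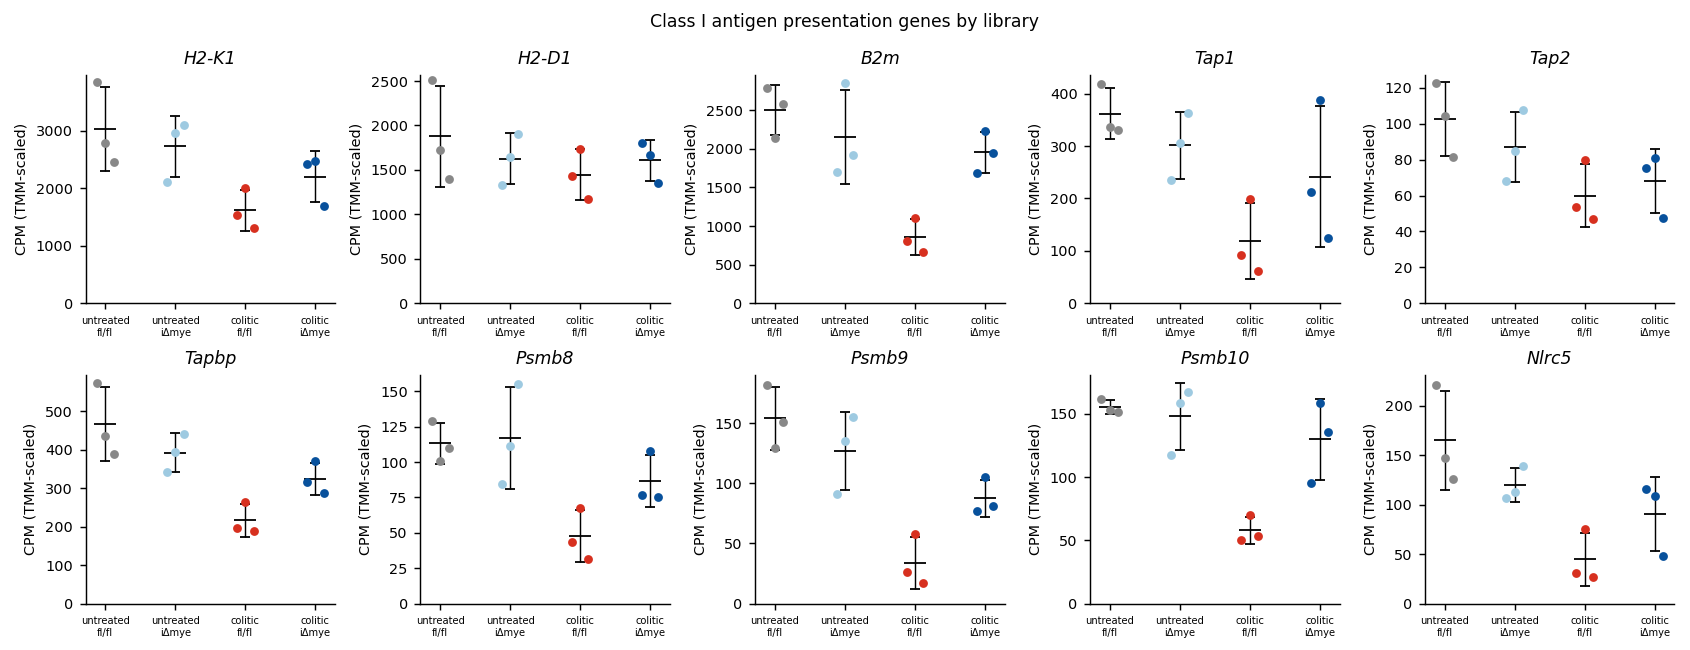
Level of each of the 10 class I presentation genes in the 12 libraries, as CPM after TMM scaling on a linear axis from 0. Points are libraries and bars are the mean with the SD (n = 3 per group). The colitic Tmem173fl/fl libraries sit below all untreated Tmem173fl/fl libraries for every gene but H2-D1.

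DSS lowered most of the class I genes in Tmem173fl/fl colon. A gene was called when edgeR's quasi-likelihood test, fitted over 24102 genes, gave a Benjamini-Hochberg adjusted p under 0.05 and the log2 fold change was at least 1 in size. By this rule 7 of the 10 fell and none rose, where 7.61% of all genes tested fell and 22.5% changed in either direction. By the adjusted p alone 9 of 10 fell, against 16.0% of all genes. In 9 of 10 genes all 3 colitic libraries lay below all 3 untreated ones, against 25.4% of all genes tested. The median log2 fold change of the set was -1.26, and that of all genes tested was 0.03.

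Of the molecule's own parts, B2m was called lower, H2-K1 passed on p alone and H2-D1 did not pass. B2m, the invariant light chain, was at 2784, 2142 and 2581 CPM in untreated Tmem173fl/fl and at 804, 1109 and 661 CPM in colitic Tmem173fl/fl colon. The groups stood clearly apart, with the highest colitic library well under the lowest untreated one. Its log2 fold change was -1.48 ± 0.21 (SE, adjusted p = 0.00049). H2-K1, which encodes the peptide-binding heavy chain K, was at 3852, 2792 and 2464 CPM untreated and at 1535, 2014 and 1314 CPM colitic. The groups did not overlap, and its change of -0.83 ± 0.22 (adjusted p = 0.0134) passed the test on p but was smaller than the size required for a call. H2-D1, the heavy chain D, was at 2506, 1721 and 1403 CPM untreated and at 1430, 1740 and 1174 CPM colitic. Here the groups overlapped, and the change of -0.30 ± 0.23 (adjusted p = 0.346) did not pass.

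The proteasome subunits fell as a group of 3. Psmb8, Psmb9 and Psmb10 encode the catalytic beta subunits that replace their constitutive counterparts in the immunoproteasome, a form whose cleavage favours peptides that class I molecules bind. Psmb9 was at 182, 129 and 151 CPM in untreated and at 26.4, 58.2 and 17.3 CPM in colitic Tmem173fl/fl colon. It showed the largest fall of the 10, with a log2 fold change of -2.11 ± 0.37 (adjusted p = 0.00172). Psmb10 was at 162, 153 and 152 CPM untreated and at 50.4, 70.3 and 53.7 CPM colitic, with a change of -1.35 ± 0.16 (adjusted p = 0.000121). Its libraries were the most alike within each of these groups, and its adjusted p was the smallest of the 10. Psmb8 was at 129, 101 and 110 CPM untreated and at 43.5, 67.5 and 31.7 CPM colitic, and fell by 1.18 ± 0.25 on the log2 scale (adjusted p = 0.00417). For all 3 subunits colitic replicate 2 was the highest colitic library and still lay below the untreated ones.

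Among the transport and loading genes, Tap1 was at 418, 336 and 330 CPM untreated and at 92.8, 200 and 62.4 CPM colitic. It encodes one chain of the peptide transporter and fell by 1.54 ± 0.36 (adjusted p = 0.00763). Tap2, the partner chain, was at 123, 104 and 81.4 CPM untreated and at 53.5, 79.7 and 46.9 CPM colitic. The Tap2 groups were separated by a narrow gap, and its change of -0.70 ± 0.22 (adjusted p = 0.0293) was not large enough for a call. Tapbp, which encodes tapasin, was at 574, 437 and 388 CPM untreated and at 196, 265 and 188 CPM colitic, and fell by 1.04 ± 0.20 (adjusted p = 0.00253). Nlrc5, the transactivator of class I genes, was at 221, 147 and 126 CPM untreated and at 31.2, 75.6 and 27.2 CPM colitic. It showed the second largest fall, -1.81 ± 0.37 (adjusted p = 0.00383), and its colitic libraries did not reach the untreated range.

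The calls of Tapbp and Psmb8 were near the size threshold: Tapbp fell to a change of -0.86 without untreated replicate 1, -0.99 without colitic replicate 1 and -0.97 without colitic replicate 3, and Psmb8 to -0.98 without colitic replicate 3, while H2-K1 was called at -1.04 without colitic replicate 2. With the libraries that lack Ddx3y reads left out, 7 of 10 were again called lower. Over all 24102 genes tested 1617 were then called lower, against 1833 with those libraries kept.

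In Tmem173iΔmye colon the same comparison gave no call. DSS changed 2.08% of all genes tested there (501 genes, a count that ran from 51 without untreated Tmem173iΔmye replicate 2 to 1469 without colitic Tmem173iΔmye replicate 5) and lowered 0.597%, and 0 of the 10 class I genes passed in edgeR. Psmb9 was the one with an unadjusted p under 0.05. All 10 estimates were below 0, with a median of -0.32 against 0.02 for all genes, and in all 10 the colitic and untreated ranges overlapped, where 9.41% of all genes lay wholly lower. B2m was at 1704, 2852 and 1916 CPM in untreated and at 1688, 2230 and 1942 CPM in colitic Tmem173iΔmye colon, a change of -0.15 ± 0.24. Psmb9 was at 90.9, 135 and 155 CPM untreated and at 76.6, 105 and 81.3 CPM colitic, a change of -0.54 ± 0.24 (adjusted p = 0.309). Psmb10 was at 118, 159 and 168 CPM untreated and at 95.5, 159 and 136 CPM colitic, a change of -0.19 ± 0.24. Each of these colitic groups lay inside or across the untreated range.

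Tap1 spread widely in colitic Tmem173iΔmye colon, at 212, 388 and 124 CPM, where the untreated libraries stood at 235, 306 and 363 CPM. Nlrc5 was at 116, 108 and 48.0 CPM colitic and at 107, 113 and 139 CPM untreated. For both, replicate 5 was the lowest colitic library and the other two lay near or inside the untreated range. H2-K1 was at 2432, 2482 and 1690 CPM colitic and at 2116, 2965 and 3109 CPM untreated, a change of -0.31 ± 0.23. H2-D1, at 1802, 1671 and 1348 CPM colitic and 1331, 1642 and 1903 CPM untreated, gave the smallest difference of the 10, -0.02 ± 0.22. The changes of Tap2, Tapbp and Psmb8 were -0.36, -0.28 and -0.44. The signs of H2-D1, Tap1, Tap2 and Nlrc5 turned positive, at 0.26, 0.17, 0.06 and 0.06, when the libraries without Ddx3y reads were left out.

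**Figure D2:**
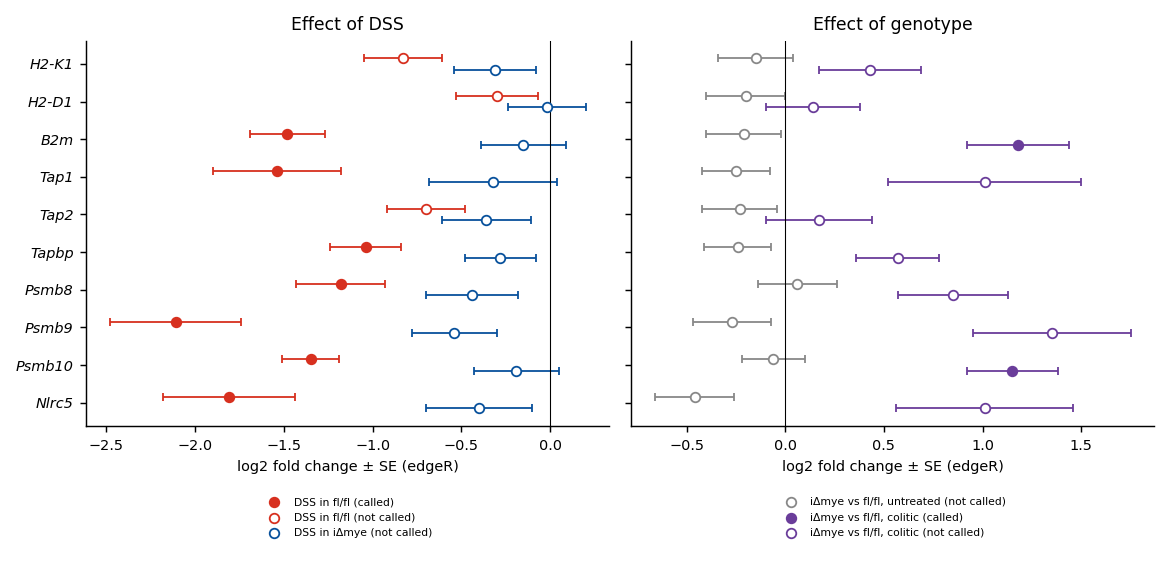
Log2 fold changes of the 10 class I presentation genes with their SE from edgeR, for DSS in each genotype (left) and for Tmem173iΔmye against Tmem173fl/fl without and with DSS (right). Filled points passed the adjusted p and the size required for a call. In Tmem173fl/fl 7 genes are filled below 0, in Tmem173iΔmye none, and between the colitic groups B2m and Psmb10 are filled above 0.

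Without DSS the genotypes were not told apart in these genes. By edgeR 0 of the 10 were called, as were 0% of all genes tested, and all adjusted p-values of the 10 equalled 1. Over all genes 720 had an unadjusted p under 0.05, DESeq2 called 8 genes, limma on log2(FPKM + 0.1) called 3, edgeR with no filter on low values called 68 and edgeR with the replicate number as a block called 94, and none of these calls was a class I gene of the set. Of the 10 estimates 9 were below 0, from -0.06 for Psmb10 to -0.46 for Nlrc5, and Psmb8 was at 0.06. With libraries lacking Ddx3y reads left out all 10 were below 0, from -0.10 for B2m to -0.73 for Nlrc5, and none was called. With all libraries kept, Nlrc5 alone of the 10 had an unadjusted p under 0.05 in edgeR. The ranges of all 10 overlapped, whereas 7.35% of all genes had ranges that did not.

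With DSS, 2 of the 10 genes were called higher in Tmem173iΔmye than in Tmem173fl/fl colon, where 0.822% of all genes were called higher and 2.81% in either direction. The latter share, 678 genes, moved from 27 genes without colitic Tmem173fl/fl replicate 1 to 1593 without colitic Tmem173iΔmye replicate 1. B2m was higher by 1.18 ± 0.26 (adjusted p = 0.0495) and Psmb10 by 1.15 ± 0.23 (adjusted p = 0.0364). B2m was not called with RLE (adjusted p = 0.0502) or upper quartile scaling (0.0515), with filterByExpr (0.0537) or with limma at pseudocounts of 0.1 and 1 (0.107 and 0.0626), nor was Psmb10 with limma (0.119 and 0.0753). All 10 estimates were above 0, with a median of 0.93. The ranges of 5 of the 10 did not overlap, against 26.8% of all genes, and for these, B2m, Tapbp, Psmb8, Psmb9 and Psmb10, every colitic Tmem173iΔmye library lay above every colitic Tmem173fl/fl library. Psmb9 had the largest estimate, 1.35 ± 0.40, and did not pass (adjusted p = 0.107), though it was called with DESeq2 (adjusted p = 0.0105), with no filter on low values (0.0327), in one edgeR fit of all 12 libraries (0.026) and without colitic Tmem173fl/fl replicate 2 (0.0234). The estimates for Tap1 (1.01 ± 0.49, adjusted p = 0.295) and Nlrc5 (1.01 ± 0.45, adjusted p = 0.251) were of like size with wider errors. Psmb8 (0.85, adjusted p = 0.142), Tapbp (0.57, adjusted p = 0.174), H2-K1 (0.43), Tap2 (0.17) and H2-D1 (0.14) were smaller.

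The DSS effect itself was then compared between genotypes by the interaction over all 12 libraries, which shares its groups with the comparisons above. B2m, with an interaction of 1.40 ± 0.33 (adjusted p = 0.0409), and Psmb10, with 1.23 ± 0.29 (adjusted p = 0.039), passed, where 0.934% of all genes were called in this direction and 2.55% in either (614 genes, and 267 to 1728 when single libraries were left out, the lowest without untreated Tmem173fl/fl replicate 1 and the highest without colitic Tmem173iΔmye replicate 1). The interaction is the DSS effect in Tmem173iΔmye minus that in Tmem173fl/fl, and it was above 0 for all 10, with a median of 1.03. Psmb9 (1.64, adjusted p = 0.0909), Nlrc5 (1.48, adjusted p = 0.167), Tap1 (1.29, adjusted p = 0.258), Tapbp (0.83, adjusted p = 0.131), Psmb8 (0.81), H2-K1 (0.59), Tap2 (0.42) and H2-D1 (0.36) did not pass. For these 8 a difference in DSS effect was thus not shown by this fit. Psmb9 was called, however, with DESeq2 (adjusted p = 0.0216), and both Psmb9 and Nlrc5 were called with no filter on low values (adjusted p = 0.014 and 0.0483) and without colitic Tmem173fl/fl replicate 2 (adjusted p = 0.00986 and 0.0391).

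Both genotype calls were close to the threshold and were lost in most omissions of a single library. Between the colitic groups neither B2m nor Psmb10 was called without colitic Tmem173fl/fl replicate 1, 2 or 3 or without colitic Tmem173iΔmye replicate 2 or 5, and in the interaction neither was called without any 1 of the 6 untreated libraries apart from B2m without untreated Tmem173iΔmye replicate 2 (adjusted p = 0.0299), without colitic Tmem173fl/fl replicate 1 or 3, or without colitic Tmem173iΔmye replicate 2 or 5. In size, B2m ranged from 1.03 to 1.42 and Psmb10 from 0.99 to 1.32 between the colitic groups over these omissions. The value of 0.99, without colitic Tmem173iΔmye replicate 2, was under the size required for a call. With libraries lacking Ddx3y reads left out B2m was at 1.18 (adjusted p = 0.0715) and Psmb10 at 1.11 (adjusted p = 0.0643).

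Ratios within a library do not depend on how libraries are scaled and set each subunit against its counterpart. The immunoproteasome subunits were compared with the constitutive subunits they replace, in FPKM. Psmb10 to Psmb7 was 6.51 to 7.16 in untreated Tmem173fl/fl, 5.51 to 6.55 in untreated Tmem173iΔmye, 2.96 to 3.57 in colitic Tmem173fl/fl and 6.49 to 7.16 in colitic Tmem173iΔmye colon. The colitic Tmem173fl/fl libraries stood apart from all 9 others in this ratio. Psmb9 to Psmb6 was 1.26 to 1.77, 0.926 to 1.17, 0.188 to 0.556 and 0.652 to 1.06 in the same order of groups. Again every colitic Tmem173fl/fl library was the lower, and colitic Tmem173iΔmye overlapped its untreated group. Psmb8 to Psmb5 was 0.924 to 1.10, 0.779 to 1.07, 0.240 to 0.833 and 0.855 to 1.64, so that colitic Tmem173fl/fl replicate 2 came within the range of untreated Tmem173iΔmye. Mean Psmb5 itself was 36.5, 40.3, 34.8 and 24.2 CPM in the same order of groups. It was at 15.5 CPM in colitic Tmem173iΔmye replicate 1, the library with the ratio of 1.64.

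In colitic Tmem173fl/fl colon the ratios of both heavy chains to the light chain were higher than in the other groups. H2-K1 to B2m was 0.315 to 0.456 in untreated Tmem173fl/fl, 0.343 to 0.535 in untreated Tmem173iΔmye, 0.599 to 0.656 in colitic Tmem173fl/fl and 0.287 to 0.475 in colitic Tmem173iΔmye. H2-D1 to B2m was 0.181 to 0.300, 0.192 to 0.331, 0.523 to 0.593 and 0.231 to 0.356. In both ratios the colitic Tmem173fl/fl libraries were above all others. H2-D1 to H2-K1 was 0.576 to 0.658 and 0.560 to 0.636 in the untreated groups, 0.874 to 0.943 in colitic Tmem173fl/fl and 0.681 to 0.806 in colitic Tmem173iΔmye. This ratio was higher in each colitic group than in its untreated group with no overlap. H2-K1 and H2-D1 are close paralogs, so that reads shared between them make each level and this ratio uncertain. Tap1 to Tap2 was 2.23 to 2.80 and 2.34 to 2.49 in the untreated groups, 0.919 to 1.73 in colitic Tmem173fl/fl and 1.79 to 3.31 in colitic Tmem173iΔmye.

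**Figure D3:**
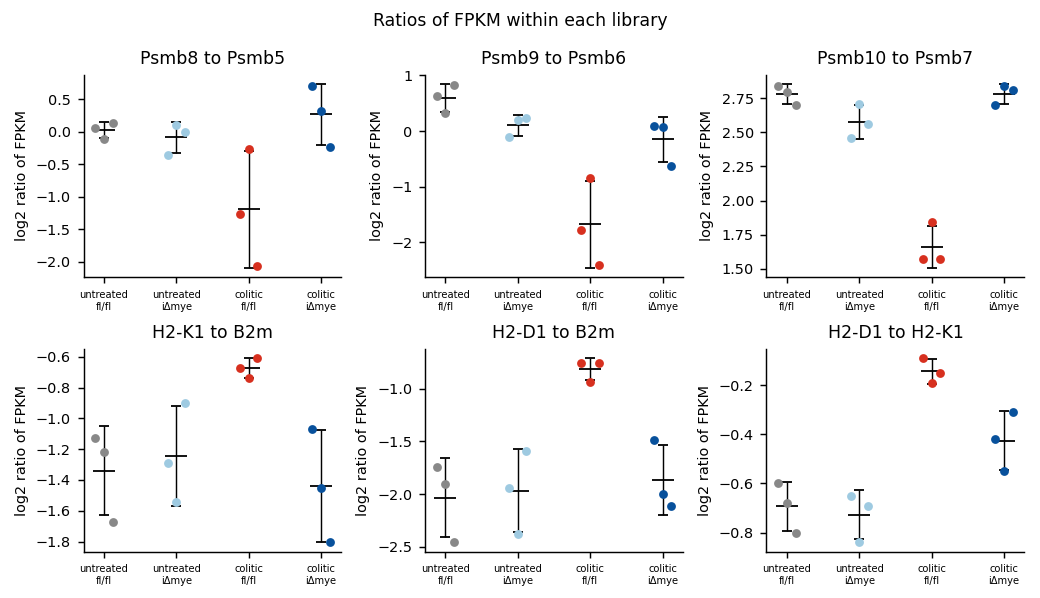
Log2 ratio of FPKM between pairs of genes within each library, by group (points, libraries; bars, mean with SD, n = 3 per group). The upper row sets each immunoproteasome subunit against the constitutive subunit it replaces and the lower row sets the heavy chains against B2m and each other. In colitic Tmem173fl/fl the Psmb10 to Psmb7 and Psmb9 to Psmb6 ratios lie below and the heavy chain to B2m ratios above those of the other 9 libraries.

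The rest of the pathway was read from lists, each described by its counts and median. Of 7 loading partners, 4 were called lower with DSS in Tmem173fl/fl, all 7 fell by the adjusted p alone and the median was -1.07. Psme2 and Psme1, the subunits of the proteasome activator PA28, fell by 1.54 ± 0.22 and 1.14 ± 0.16 (edgeR adjusted p = 0.000485 and 0.000452). Erap1, which trims peptides in the endoplasmic reticulum, fell by 1.17 ± 0.17 (adjusted p = 0.000536), though its change was -0.97 without untreated replicate 3. None of the 3 constitutive beta subunits was called: Psmb5 was at -0.00, Psmb6 at -0.02 and Psmb7 at -0.24. Of the 11 other 20S core subunits 1 was called lower, Psma1 at -1.46 ± 0.16 (adjusted p = 0.000106), 8 fell by the adjusted p alone and the median was -0.47.

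Of 14 further class I heavy chain genes 4 were called lower and 1 higher, with a median of -0.58. H2-Q1 was at 42.7, 40.8 and 35.2 CPM in untreated and at 6.50, 7.29 and 6.47 CPM in colitic Tmem173fl/fl colon, a change of -2.48 ± 0.16 (adjusted p = 3.96e-06). Its fall was larger than that of any of the 10 genes of the set. The H2-Q and H2-T genes are also paralogs of H2-K1 and H2-D1, so that shared reads make their levels uncertain too. H2-Q2 fell by 2.08 ± 0.18 (adjusted p = 1.91e-05) and H2-T24 by 1.43 ± 0.32 (adjusted p = 0.0064). Mr1, whose product presents vitamin B metabolites to T cells, rose by 1.23 ± 0.22 (adjusted p = 0.00161), though with limma on log2(FPKM + 1) its change was 0.80 and too small for a call. With DSS, H2-Q1 was higher in Tmem173iΔmye, at 18.5, 33.3 and 31.1 CPM, than in Tmem173fl/fl colon (2.02 ± 0.27, adjusted p = 0.0137), though not without colitic Tmem173fl/fl replicate 1 (adjusted p = 0.073) or 3 (adjusted p = 0.0529) or colitic Tmem173iΔmye replicate 2 (adjusted p = 0.0536), nor with limma on log2(FPKM + 0.1) (adjusted p = 0.0625). Of the loading partners Psme2 was higher there by 1.54 ± 0.29 (adjusted p = 0.0317), and this call was lost without any 1 of 5 of the 6 libraries, with adjusted p-values up to 0.148 when colitic Tmem173fl/fl replicate 1 was left out, and with limma at pseudocounts of 0.1 and 1 (adjusted p = 0.119 and 0.0837).

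Of 16 regulators of class I genes 4 were called lower with DSS in Tmem173fl/fl and the median was -0.36. Stat2 fell by 2.04 ± 0.33 (adjusted p = 0.000929), Irf1 by 1.30 ± 0.21 (adjusted p = 0.0011) and Irf9 by 1.18 ± 0.23 (adjusted p = 0.00281), though the change of Irf9 was -0.99 without untreated replicate 1. These encode transcription factors of the interferon response. None of the 16 was called in Tmem173iΔmye, between the colitic groups or in the interaction. Ifng, the gene of interferon gamma, was at 2.35, 1.02 and 1.94 CPM in untreated and at 0.108, 0.615 and 0 CPM in colitic Tmem173fl/fl colon. It was called lower (-2.65 ± 0.80, adjusted p = 0.0261) on few reads, and was not called without untreated replicate 1 (adjusted p = 0.0777), untreated replicate 3 (adjusted p = 0.0794) or colitic replicate 1 (adjusted p = 0.079), and with limma on log2(FPKM + 1) its change was -0.97. Ifnb1 did not reach the filter on low values, and Ifnl2 and Ifnl3 were not called. Of 11 genes of CD8 T and natural killer cells, which read class I molecules, Gzmb (-2.15 ± 0.24, adjusted p = 0.000101) and Gzma (-1.74 ± 0.27, adjusted p = 0.000763), the genes of granzymes B and A, were called lower and the median was -0.81. In one fit of all 12 libraries Gzma was not called (adjusted p = 0.0584).

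**Figure D4:**
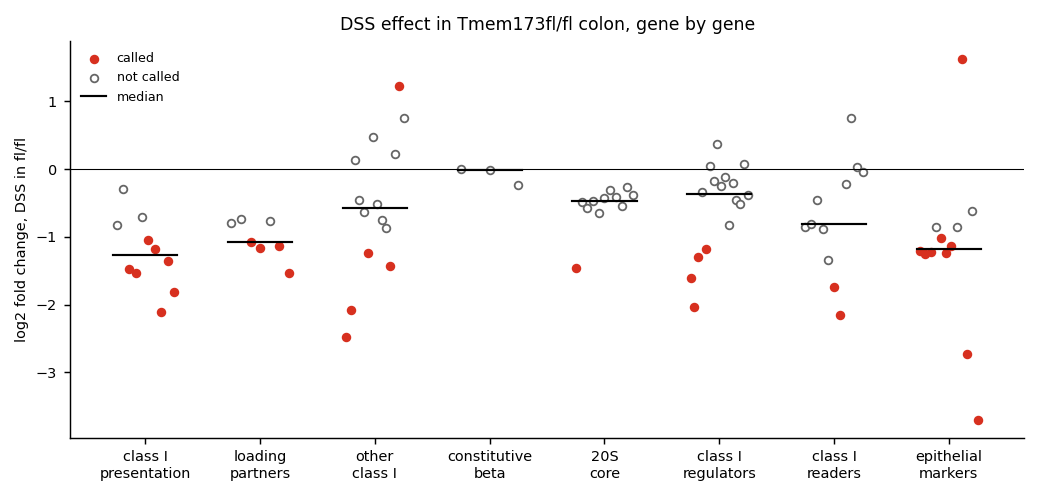
Log2 fold change with DSS in Tmem173fl/fl colon for each tested gene of the class I presentation set and of 7 other lists. Red points were called, open points were not, and the line is each list's median. The medians were -1.26 for the class I presentation genes, -1.07 for the loading partners, -0.02 for the constitutive beta subunits and -1.17 for the epithelial markers.

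In bulk tissue, fewer cells of a type and less RNA per cell cannot be told apart, and cell type markers moved with these results. With DSS in Tmem173fl/fl, 8 of 12 epithelial markers were called lower and 1, Car1, higher, with a median of -1.17 beside the class I median of -1.26. Lgr5 (-3.70), Slc26a3 (-2.73) and Cdh1 (-1.26) fell most. All 7 neutrophil markers (median 7.27), all 6 fibroblast markers (median 2.62), all 4 endothelial markers (median 2.49) and 7 of 10 myeloid markers (median 1.34) rose, and 1 myeloid marker, Xcr1 of cross-presenting dendritic cells, fell by 1.80 ± 0.35 (adjusted p = 0.0029), while Ptprc, which all leukocytes express, was at -0.10. Between the colitic groups the epithelial markers had a median of 0.78 with 1 of 12 called higher, and 5 of 6 fibroblast and 4 of 7 neutrophil markers were called lower in Tmem173iΔmye. In the interaction the epithelial markers had a median of 0.76 with 2 of 12 called higher, and 4 of 6 fibroblast and 2 of 4 endothelial markers were called lower. No epithelial marker was at 3 counts or fewer throughout a group. The part of these shifts in the class I results was not tested.

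Summed over the 12 epithelial markers, the libraries reached 7428 to 10230 FPKM in untreated Tmem173fl/fl, 8824 to 9717 in untreated Tmem173iΔmye, 4219 to 6766 in colitic Tmem173fl/fl and 6474 to 8602 in colitic Tmem173iΔmye. The 10 class I genes summed to 4509 to 6007, 3526 to 5346, 1888 to 2984 and 3597 to 4508 FPKM. The class I sums of the colitic Tmem173fl/fl libraries were thus below those of all other libraries. The epithelial sums of the colitic groups overlapped, with Tmem173fl/fl replicate 3 (6766 FPKM) above Tmem173iΔmye replicate 5 (6474 FPKM). Within colitic Tmem173fl/fl the sums ran in opposite order: replicate 2 had the highest class I sum (2984 FPKM) and the lowest epithelial sum (4219 FPKM), and replicate 3 the lowest class I sum (1888 FPKM) and the highest epithelial sum (6766 FPKM). Both sums weigh genes by level. In this group B2m, H2-K1 and H2-D1 averaged 1008, 628 and 567 FPKM, and Tapbp, the next of the set, 66.3 FPKM. Car1, the epithelial marker called higher with DSS, averaged 434 FPKM in untreated and 1328 FPKM in colitic Tmem173fl/fl colon. What the order of the sums reflects was not tested.

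**Figure D5:**
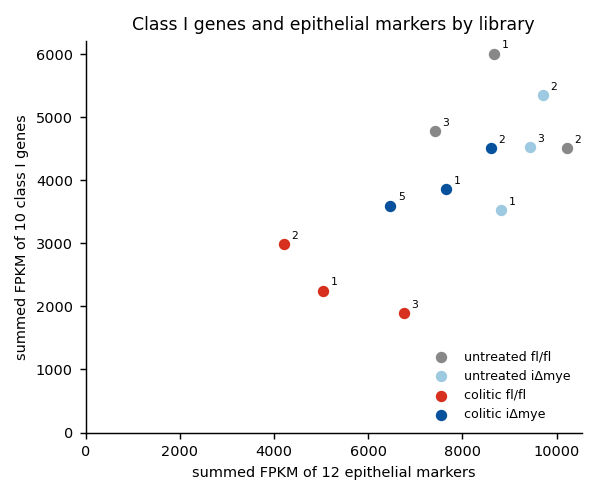
Summed FPKM of the 10 class I presentation genes against summed FPKM of 12 epithelial markers, 1 point per library, numbered by replicate, both axes linear from 0. The colitic Tmem173fl/fl libraries hold the lowest class I sums, 1888 to 2984 FPKM, and run in opposite order on the axes. Each sum is weighted towards its genes of highest level.

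Over the 12 libraries most class I genes varied together, a description of libraries that differ in treatment. Pearson's r of log2(FPKM + 0.1) ran from 0.40 for H2-D1 with Psmb10 to 0.98 for Psmb8 with Psmb9. H2-D1 was the least like the others, with r = 0.46 to B2m and 0.82 to H2-K1. Among all genes with a mean of at least 1 FPKM, H2-T23 (r = 0.980), Slfn5 (0.961) and Tapbp (0.955) were most like H2-K1. Among those most like B2m were Psme1 (0.979) and Katna1 (0.973). Among those most like Psmb9 were Apol10b (0.982) and Idnk (0.978). For Nlrc5 they were Parp14 and Uba7 (0.972 each) and 9330175E14Rik (0.971), a noncoding gene that overlaps Nlrc5 by 748 bases on the opposite strand.

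The genes lie on 3 chromosomes of GRCm38. The files place Tapbp (chr17:33915899-33929288), H2-K1 (chr17:33996017-34000333), Psmb9 (chr17:34181988-34187764), Tap1 (chr17:34187553-34197225), Psmb8 (chr17:34197721-34201454), Tap2 (chr17:34203527-34216321) and H2-D1 (chr17:35262730-35267499) within the MHC on chromosome 17. B2m (chr2:122147686-122153083) is on chromosome 2, and Psmb10 (chr8:105935735-105938444) and Nlrc5 (chr8:94434356-94527272) are on chromosome 8. Tap1 and Psmb9 overlap by 212 bases on opposite strands, and Tapbp shares 3421 bases with Zbtb22 on the same strand, whose count was at most 768 in a library. Whether the counting used strand was not stated, so that reads of these shared stretches could not be assigned with certainty. The genes called lower with DSS in Tmem173fl/fl lay both outside the MHC (B2m, Psmb10 and Nlrc5) and inside it (Tapbp, Psmb9, Tap1 and Psmb8). H2-K1 and Tap2, inside it, fell by the adjusted p alone and were under the size required for a call. H2-D1, also inside it, did not pass.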

How the data were processed

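RNA of 12 mouse colon samples was extracted with TRIzol and made into libraries with the NEBNext Ultra kit. Per the submitters' processing notes, reads were handled with CASAVA 1.8, fastp, HISAT2 2.0.5 and featureCounts 1.5.0-p3 on GRCm38/mm10. The authors deposited raw counts per gene and FPKM, which divides counts by gene length and library total. The authors' columns of their own DESeq2 1.20.0 comparisons (signal, as group means of normalized counts, with log2 fold changes and p-values) were not used. Here counts were tested in edgeR 4.0.16 (TMM, quasi-likelihood, R 4.3.3) over genes with FPKM of at least 0.1 in at least 3 of the 12 libraries, with only the compared groups in each fit and all 12 in the interaction. DESeq2 1.42.0 and limma 3.58.1 served as alternatives, with other scalings, filters and omissions of each library. The method was tested on simulated data. P-values measure the spread between these samples, which no label ties to separate mice, and with 3 against 3 an exact permutation test cannot go below 0.1. All 10 genes were described in every comparison, and of the other lists at most 3 called genes a direction were named. For H2-K1, B2m, Psmb9 and Nlrc5 the 3 most alike genes were taken, and 1 gene that these rules name is not reported here. The genes and lists were chosen with earlier results of these data known, and the omission of libraries without Ddx3y reads was chosen after seeing the data.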

Additional observations from a re-analysis of the deposited data

Results flagged for a closer look

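The DSS effect of 4 class I genes differed between the genotypes by the interaction test in edgeR. Each interaction is the log2 fold change with DSS in Tmem173iΔmye minus that in Tmem173fl/fl, and it was 1.40 for B2m (adjusted p = 0.0409), 1.23 for Psmb10 (adjusted p = 0.039), 2.27 for H2-Q1 (adjusted p = 0.0059) and 1.74 for H2-Q2 (adjusted p = 0.0451). All 4 fell with DSS in Tmem173fl/fl colon and were not called in Tmem173iΔmye colon. For H2-Q1 and H2-Q2 the levels are uncertain from reads shared with paralogs. B2m and Psmb10 were not called with limma at the pseudocount of 0.1 (adjusted p = 0.0803 and 0.0947), and were lost in 9 and 10 of the 12 omissions of a single library. With libraries lacking Ddx3y reads left out, H2-Q1 passed (2.39, adjusted p = 0.0194), and B2m (1.27, adjusted p = 0.223), Psmb10 (1.28, adjusted p = 0.133) and H2-Q2 (2.01, adjusted p = 0.0561) did not. H2-Q2 was also lost without any 1 of the untreated or colitic Tmem173fl/fl libraries or the untreated Tmem173iΔmye libraries, with adjusted p-values from 0.0620 to 0.131, and with limma at pseudocounts of 0.1 and 1 (adjusted p = 0.13 and 0.0869). Single outlying samples were not tested in these groups of 3.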

How the results depend on the processing

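The 7 calls with DSS in Tmem173fl/fl numbered 5 to 8 when single libraries were left out. Over all 24102 genes tested the count of 5422 there ran from 4761 without colitic Tmem173fl/fl replicate 1 to 5568 without colitic Tmem173fl/fl replicate 3. Of the class I genes of the set, 0 were called with DSS in Tmem173iΔmye or between the untreated genotypes under any alternative. Between the colitic genotypes the count of 2 became 1 with RLE or upper quartile scaling and with filterByExpr, 0 with limma at either pseudocount and with libraries lacking Ddx3y reads left out, and 0 to 2 when single libraries were left out, and it became 3, with Psmb9 added, with DESeq2, with no filter and in one fit of all 12 libraries. Over all genes tested the count of 678 was 636 with RLE, 638 with upper quartile scaling, 627 with filterByExpr, 71 and 278 with limma at pseudocounts of 0.1 and 1, 1619 with DESeq2, 1257 with no filter and 1492 in one fit of all 12 libraries. It was 508 with libraries lacking Ddx3y reads left out. In the interaction the count of 2 became 5 at an unadjusted p, 4 with no filter, 3 with DESeq2, 0 with limma at the pseudocount of 0.1, 0 with libraries lacking Ddx3y reads left out and 0 to 4 when single libraries were left out. Over all genes 614 became 1228 with no filter, 1375 with DESeq2, 368 with limma at the pseudocount of 0.1 and 201 with libraries lacking Ddx3y reads left out. An unadjusted p under 0.05 in the interaction was found for 4361 of the 24102 genes tested. The cause of these moves was not tested beyond the smaller number of libraries or genes that some settings hold. Signs turned only among uncalled values. With DSS in Tmem173iΔmye, H2-D1 was at 0.01 with upper quartile scaling, and with libraries lacking Ddx3y reads left out H2-D1 was at 0.26, Tap1 at 0.17, Tap2 at 0.06 and Nlrc5 at 0.06. Over single omissions B2m ranged from -0.29 to 0.11, H2-D1 from -0.14 to 0.14 and Tap1 from -0.83 to 0.01. Between the untreated genotypes H2-K1 ranged from -0.27 to 0.06, H2-D1 from -0.37 to 0.06, Psmb8 from -0.20 to 0.25 and Psmb10 from -0.16 to 0.08 over single omissions, and Psmb8 was at -0.22 with libraries lacking Ddx3y reads left out.

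For samples with the same replicate number, the deviations from the group means correlated between -0.19 and 0.21. Whether such samples shared a litter or batch was not stated, and correlations within groups this small cannot decide it. With the replicate number as a block, 7 genes were called with DSS in Tmem173fl/fl, 0 in Tmem173iΔmye, 0 between the untreated and 2 between the colitic genotypes, and 2 in the interaction. Over all genes the block gave 4939, 1369, 94, 849 and 590 calls in that order, against 5422, 501, 0, 678 and 614 without it. Of the 2 between the colitic genotypes, Psmb9 (adjusted p = 0.042) took the place of B2m (adjusted p = 0.0907). Under the block the DSS effect in Tmem173iΔmye was 0.23 for H2-D1, 0.10 for Tap1, 0.04 for Tap2 and 0.03 for Nlrc5.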

Other observations

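Among the further class I heavy chain genes, H2-T3 was at 0.121 CPM in colitic Tmem173iΔmye replicate 5 and at 13.3 to 70.2 CPM in the other 11 libraries. H2-T3 was singled out after its values had been seen. Cd8a, which marks CD8 T cells, was at 1.15 CPM in the same library and at 10.2 to 31.1 CPM in the other libraries. The 10 class I presentation genes summed to 3597 FPKM there, the lowest of the 3 colitic Tmem173iΔmye libraries and above all 3 colitic Tmem173fl/fl libraries.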
